A study of Mus musculus with 2 samples.

Results

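Genes that were low in dividing erythroblasts and higher after 1 day of maturation are described here. The cells, from mice of C57/bl6 background, were Extensively Self Renewing Erythroblasts (ESREs), a culture of early erythroid cells with a long capacity to divide. The series title speaks of transgenic β-Yac mice as the source of such cells, while the sample labels give no transgene. The maturation group held ESREs matured for 1 day, and the expansion group held proliferating ESREs. Total RNA was sequenced and deposited as FPKM (fragment numbers corrected for the length of the transcript and the size of the library), with 1 value per gene row and group. Duplicates were named in the design of the series, but 1 value per group was deposited, so no value below has an SD, and no difference could be set against the spread between replicates or tested.

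The genes were chosen by the deposited FPKM of both groups. A row was counted as switched on when its FPKM was under 1 in expansion and at least 2 in maturation, with a maturation value at least 3 times the expansion value. Rows of microRNAs, small nuclear and nucleolar RNAs, 5S RNA, histones and LOC entries were left out by name, which removed 2541 of 25791 rows. The rule found 33 genes of the 25791 rows. These values chose the genes, so they are given as a description and support nothing by themselves. Of 14736 rows under 1 FPKM in expansion, 33 met the rule, or 0.224%. The mirrored thresholds, with under 1 FPKM in maturation and at least 2 FPKM and 3 times as much in expansion, were met by 193 of 15650 rows, or 1.23%. Of 8664 rows with at least 1 FPKM in a group, called expressed here, 115 were at least 3-fold higher in maturation (1.33%) and 530 at least 3-fold lower (6.12%).

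During terminal maturation an erythroblast stops dividing, fills with hemoglobin, builds the membrane skeleton of the red cell and finally expels its nucleus. GATA1 with its partners TAL1 and LMO2, and KLF1, bind GATA, E-box and CACCC sequences and drive most of the known erythroid genes. A membrane protein such as band 3 and a heme enzyme such as ALAS2 are standard markers of this programme.

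The genes include 4 erythroid markers, whose values took part in the choice and so check no label. Slc4a1, the band 3 anion exchanger of the red cell membrane, was at 18.0 FPKM in maturation and 0.0744 FPKM in expansion. Epb4.9, which RefSeq names Dmtn, encodes the actin-bundling protein dematin and was at 11.99 FPKM in maturation and 0.0361 FPKM in expansion. Fam132b, the hormone erythroferrone that lowers hepcidin, was at 10.2 FPKM in maturation and 0.563 FPKM in expansion. Alas2, which encodes the erythroid form of 5-aminolevulinate synthase, the entry enzyme of the heme pathway, was at 7.89 FPKM in maturation and 0.975 FPKM in expansion. Markers of 7 other cell types that such a culture could hold were also read. None of the 18 granulocyte, 17 lymphocyte and 16 hepatocyte marker rows reached 1 FPKM in either group, and their highest values were 0.455, 0.183 and 0.0474 FPKM in maturation and 0.341, 0.273 and 0.255 FPKM in expansion. The 17 macrophage marker rows summed to 0.661 FPKM in maturation and 1.44 FPKM in expansion. The 14 mast cell and basophil rows summed to 34.5 FPKM in maturation and 160 FPKM in expansion, most of it Srgn, serglycin, at 27.8 FPKM in maturation and 128 FPKM in expansion. Of 8 expressed mast cell and basophil rows, 6 had a log2 ratio of -1 or less and 2 of at least 1. The receptor subunit Ms4a2 was at 0.0903 FPKM in maturation and 7.07 FPKM in expansion, whereas the mast cell proteases Mcpt1 and Mcpt2 were at 1.20 and 1.30 FPKM in maturation and at 0.0139 and 0.0406 FPKM in expansion, and Mcpt4 was at 0.715 and 0.00971 FPKM. The 18 megakaryocyte and platelet rows summed to 22.6 FPKM in maturation and 38.1 FPKM in expansion. Tubb1, a tubulin of platelets, made up most of the maturation sum at 18.3 FPKM, against 13.1 FPKM in expansion, while Gp5 was at 0.438 FPKM in maturation and 9.63 FPKM in expansion and Gp1ba at 0.845 and 7.22 FPKM. The 17 stromal and endothelial rows summed to 19.1 FPKM in maturation and 28.1 FPKM in expansion, most of it Acta2, smooth muscle actin, at 17.4 FPKM in maturation and 22.7 FPKM in expansion. Listed at 0 in both groups were 2 granulocyte, 2 lymphocyte, 1 mast cell and 1 stromal row. No gene of these lists was among the 33, and the part of such cells in the values of the 33 was not tested. In such bulk values, fewer cells of a type and less RNA per cell cannot be told apart.

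Promoter windows were read from RefSeq on GRCm38.p6 for 30 of the 33 genes, all but Slc4a1, Epb4.9 and Adam33. Of these, 6 are shown because they carry the patterns discussed further on. Alas2, Smox and Slc38a5 come from the 8 genes with both GATA and CACCC-type letters. The others are apolipoprotein L genes with or without GATA letters. Each runs 5′ to 3′ on the strand of the gene, from 250 bases before to 50 bases after the annotated start site. Capitals mark the GATA hexamers, which are GATA with A or T before it and A or G after it, and the CACCC-type pattern CCNCNCCCN. Both strands were searched, and neighbouring or overlapping matches run together.
Alas2 promoter, chrX:150547167-150547466, plus strand: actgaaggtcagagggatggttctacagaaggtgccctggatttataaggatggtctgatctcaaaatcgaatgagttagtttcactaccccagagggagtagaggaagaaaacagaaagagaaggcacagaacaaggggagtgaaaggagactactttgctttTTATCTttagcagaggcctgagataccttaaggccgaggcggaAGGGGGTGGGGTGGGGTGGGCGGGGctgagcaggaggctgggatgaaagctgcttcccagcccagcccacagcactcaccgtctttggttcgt
Smox promoter, chr2:131491612-131491911, plus strand: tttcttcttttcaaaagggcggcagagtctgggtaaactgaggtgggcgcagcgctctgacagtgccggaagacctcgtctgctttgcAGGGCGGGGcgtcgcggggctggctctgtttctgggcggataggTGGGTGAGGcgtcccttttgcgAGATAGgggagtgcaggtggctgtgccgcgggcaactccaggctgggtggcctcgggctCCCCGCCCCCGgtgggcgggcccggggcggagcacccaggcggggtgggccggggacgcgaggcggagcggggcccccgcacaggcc
Slc38a5 promoter, chrX:8271131-8271430, plus strand: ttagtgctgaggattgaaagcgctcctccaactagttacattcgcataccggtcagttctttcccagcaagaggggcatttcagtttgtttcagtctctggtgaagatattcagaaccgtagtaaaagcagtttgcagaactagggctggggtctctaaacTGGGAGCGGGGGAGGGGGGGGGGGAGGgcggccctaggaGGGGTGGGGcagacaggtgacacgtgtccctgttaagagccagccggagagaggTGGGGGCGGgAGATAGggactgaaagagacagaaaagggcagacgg
Apol11a promoter, chr15:77508019-77508318, plus strand: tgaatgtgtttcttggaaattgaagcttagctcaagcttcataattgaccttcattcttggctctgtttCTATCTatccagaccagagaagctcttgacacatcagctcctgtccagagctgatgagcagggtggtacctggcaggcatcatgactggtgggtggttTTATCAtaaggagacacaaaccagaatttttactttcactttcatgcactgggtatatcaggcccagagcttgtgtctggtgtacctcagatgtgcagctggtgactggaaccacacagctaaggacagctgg
Apol11b promoter, chr15:77643237-77643536, minus strand: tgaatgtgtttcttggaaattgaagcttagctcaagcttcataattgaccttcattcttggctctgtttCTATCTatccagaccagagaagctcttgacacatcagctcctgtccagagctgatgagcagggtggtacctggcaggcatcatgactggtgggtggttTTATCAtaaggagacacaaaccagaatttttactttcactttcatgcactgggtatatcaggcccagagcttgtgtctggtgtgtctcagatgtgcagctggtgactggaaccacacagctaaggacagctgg
Apol8 promoter, chr15:77756961-77757260, minus strand: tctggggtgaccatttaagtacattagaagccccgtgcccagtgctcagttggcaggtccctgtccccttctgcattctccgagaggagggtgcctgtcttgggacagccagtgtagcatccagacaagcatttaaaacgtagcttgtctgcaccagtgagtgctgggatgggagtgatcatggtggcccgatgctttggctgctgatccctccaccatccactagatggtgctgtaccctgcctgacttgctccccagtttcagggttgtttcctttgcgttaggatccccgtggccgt

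The 33 genes were mostly of low to middling abundance. Their median was 2.92 FPKM in maturation and 0.625 FPKM in expansion, against 3.26 and 4.23 FPKM for all expressed rows in the same order. In maturation 4 genes were at 10 FPKM or more, 6 between 5 and 10, and 23 between 2 and 5, of which 17 were under 3 FPKM. In expansion 22 genes were between 0.5 and 1 FPKM, 6 between 0.1 and 0.5, and 5 under 0.1. None was listed at exactly 0 in expansion. Together the genes summed to 164 FPKM in maturation and 18.7 FPKM in expansion, which was 0.0706% and 0.00797% of the summed FPKM of all rows kept by name. The 9 highest genes held 55.3% of the maturation sum of the 33. Ranked among the 8664 expressed rows, Slc4a1 stood at position 1201 in maturation and 8653 in expansion, and Slc30a10, the lowest of the group in maturation, at 5682 and 8649.

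**Figure D1:**
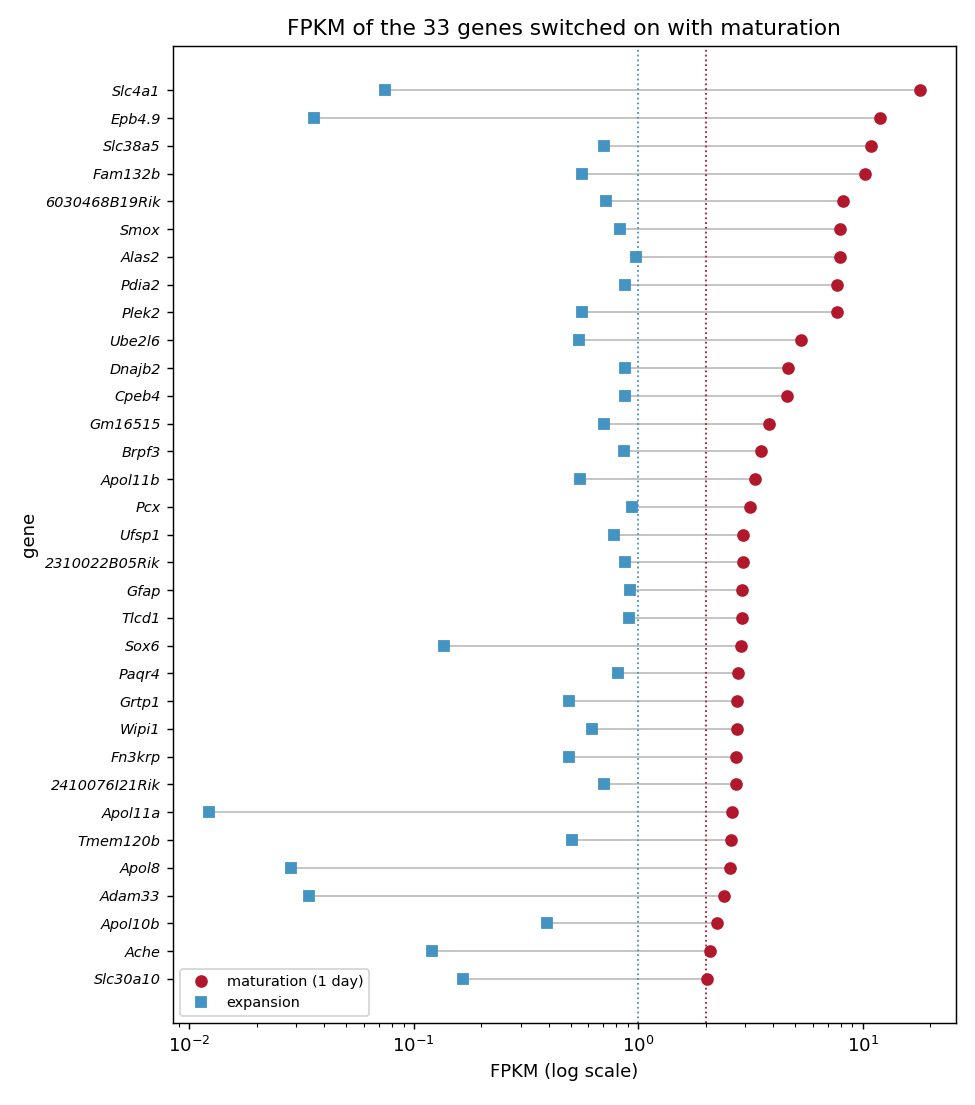
FPKM of each of the 33 genes on a log axis, 1 deposited value per group, with circles for maturation and squares for expansion. Dotted lines mark 2 FPKM for maturation and 1 FPKM for expansion; 5 genes start below 0.1 FPKM in expansion, and Slc4a1 reaches 18.0 FPKM in maturation.

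The ratio of maturation over expansion was at least 10-fold for 12 genes, between 5- and 10-fold for 12 and between 3- and 5-fold for 9, with a median of 5.97. The largest ratios belonged to Epb4.9 (332-fold), Slc4a1 (242-fold), Apol11a (215-fold), Apol8 (90.7-fold) and Adam33 (70.7-fold), the 5 genes under 0.1 FPKM in expansion. A ratio over so small a value is uncertain, since the depth behind it is unknown. The log2 ratio with a pseudocount of 1 had a median of 1.50 over the 33 genes and of -0.25 over all expressed rows. Rescaling to a median ratio of 1 over all expressed rows multiplied the maturation values by 1.26. None of the 33 genes could leave the rule that way, and 10 further rows joined them.

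**Figure D2:**
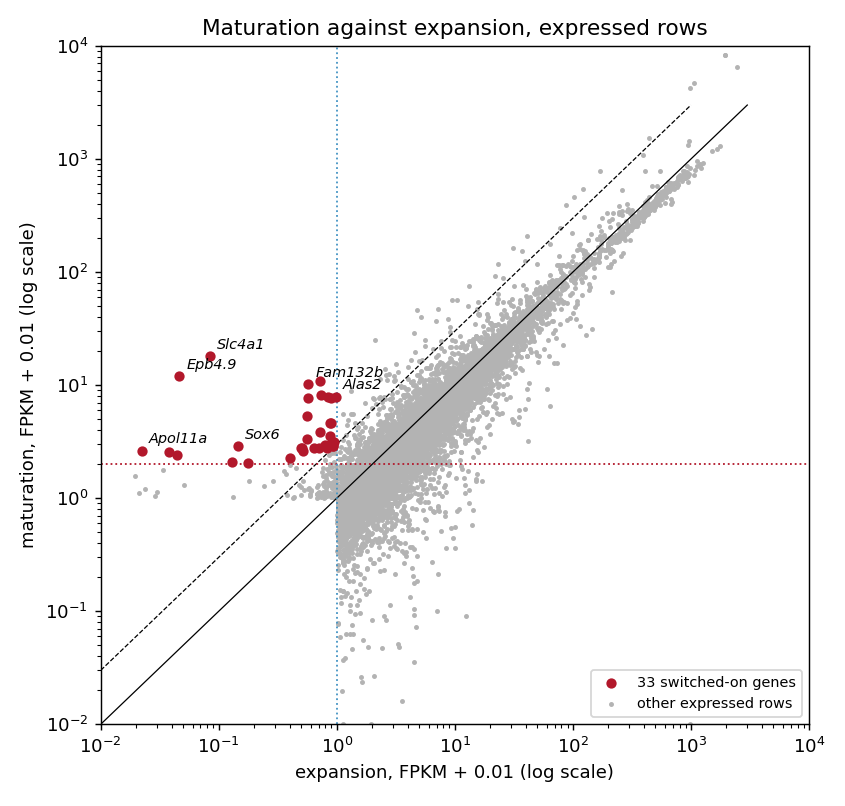
Maturation against expansion FPKM for the 8664 expressed rows on log axes, with 0.01 added to each value; the 33 genes are the large points. The solid line marks equal values and the dashed line a 3-fold ratio before 0.01 was added, and the dotted lines mark 1 FPKM in expansion and 2 FPKM in maturation. The 33 genes fill the upper left corner set by these limits.

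The thresholds cut through a continuous range. Just inside the expansion limit were Alas2, Pcx and Gfap at 0.975, 0.934 and 0.920 FPKM, and just outside were Lpcat1, Ppard and Cdc25b at 1.12, 1.18 and 1.20 FPKM. Just inside the maturation limit were Slc30a10, Ache and Apol10b at 2.03, 2.08 and 2.25 FPKM, and just outside were Acyp2, Mxd3 and Trim10 at 1.94, 1.84 and 1.78 FPKM. Trim10, an erythroid member of the tripartite motif family, was at 0.0234 FPKM in expansion, a 76.1-fold ratio. Just inside the ratio limit were Gfap, Tlcd1 and 2310022B05Rik at 3.16-, 3.18- and 3.34-fold, and just outside were Tpcn1, Neil3 and Darc at 2.80-, 2.78- and 2.75-fold. Of the 39 rows under 1 FPKM in expansion and at 2 FPKM or more in maturation, 6 fell short of the 3-fold ratio.

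Transport, membrane and cytoskeletal genes are described first. Beside Slc4a1 and Epb4.9, Slc38a5, a transporter of glutamine and other small amino acids, was at 10.9 FPKM in maturation and 0.704 FPKM in expansion (15.6-fold). Slc30a10, known in mammals as an exporter of manganese, was at 2.03 FPKM in maturation and 0.165 FPKM in expansion (12.3-fold). Plek2, which encodes pleckstrin 2, a phosphoinositide-binding protein that acts on the actin cytoskeleton, was at 7.69 FPKM in maturation and 0.561 FPKM in expansion (13.7-fold). For lists, a gene counted as higher or lower when its log2 ratio with a pseudocount of 1 reached 1 or -1. Of all expressed rows, 2.0% (173 of 8664) were higher and 6.49% (562) lower, and 33 of the 8664 met the rule. With so few, a list without a switched-on gene need not differ from all rows. All 33 genes also reached the higher limit, by the same values that chose them, so the counts of higher genes include them. Among red cell membrane and skeleton genes 30 were expressed, and 2 were switched on by the rule, 11 higher and 2 lower, with a list median log2 ratio of 0.80. Rhd, a Rh blood group gene, was at 46.1 FPKM in maturation and 4.81 FPKM in expansion, and Aqp1, the water channel, at 29.1 and 4.51 FPKM. Unlike Slc4a1, the genes of 2 of its partners were already present in expansion: Ank1, which encodes ankyrin 1, was at 13.3 FPKM in maturation and 5.17 FPKM in expansion, and Rhag, the Rh-associated glycoprotein, at 44.7 and 50.6 FPKM. On the list of ion, water and solute transport, 2 of 24 expressed genes were switched on, 4 were higher and 1 was lower. Slc14a1, the urea transporter, stood outside the rule at 1.40 FPKM in maturation and 0.280 FPKM in expansion.

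Metabolic enzymes formed a second set. Alas2 was the 1 switched-on gene among 22 expressed genes of heme synthesis and porphyrin transport, of which 12 were higher and none lower (list median log2 ratio 1.12). In FPKM, which is scaled per length, its level in maturation was below that of the next enzyme of the pathway. Alad, which joins 5-aminolevulinate molecules, was at 56.9 FPKM in maturation and 9.38 FPKM in expansion. Smox, spermine oxidase, which converts spermine to spermidine, was at 7.90 FPKM in maturation and 0.830 FPKM in expansion (9.52-fold). Pcx, the mitochondrial pyruvate carboxylase that makes oxaloacetate, was at 3.16 FPKM in maturation and 0.934 FPKM in expansion (3.38-fold). Fn3krp, a kinase of sugar adducts on proteins, was at 2.74 FPKM in maturation and 0.491 FPKM in expansion. Ache, acetylcholinesterase, which is also carried on red cells, was at 2.08 FPKM in maturation and 0.120 FPKM in expansion (17.3-fold). No gene of 23 expressed iron genes met the rule, which 33 of all 8664 expressed rows met, and 3 were higher and 1 was lower.

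Protein handling genes made another set. Ube2l6, a conjugating enzyme for ubiquitin and ISG15, was at 5.33 FPKM in maturation and 0.546 FPKM in expansion (9.76-fold). It also stands on the list of interferon response genes. There Ube2l6, chosen for its rise, was the 1 gene of 10 expressed that was higher. The 3 that were lower included Psmb8 at 0.362 FPKM in maturation and 4.31 FPKM in expansion. Pdia2, a protein disulfide isomerase, was at 7.71 FPKM in maturation and 0.875 FPKM in expansion (8.81-fold). Dnajb2, a co-chaperone of HSP70, was at 4.65 FPKM in maturation and 0.870 FPKM in expansion (5.35-fold). Ufsp1, named for the protease that processes the ubiquitin-like modifier UFM1, was at 2.92 FPKM in maturation and 0.780 FPKM in expansion. Wipi1, a phosphoinositide-binding autophagy protein, was at 2.75 FPKM in maturation and 0.625 FPKM in expansion. It was the 1 gene of 30 expressed autophagy and mitophagy genes that was higher, beside 2.0% of all expressed rows. Its own rise was a condition of its choice, so that count is no result about the list. Adam33, a membrane metalloprotease, was at 2.41 FPKM in maturation and 0.0341 FPKM in expansion.

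Regulators of transcription and translation were few. Sox6, a factor that represses embryonic globin genes in mouse erythroid cells, was at 2.86 FPKM in maturation and 0.136 FPKM in expansion. It was the 1 switched-on gene among 39 expressed transcription factors on the erythroid and hematopoietic list, of which 6 were higher and 7 lower. With all ratios shifted to a median of 1, 9 were higher and 3 lower. The lower ones without that shift included Myb, a factor of proliferating progenitors, at 1.17 FPKM in maturation and 13.2 FPKM in expansion. Brpf3, a scaffold of histone acetyltransferase complexes, was at 3.52 FPKM in maturation and 0.868 FPKM in expansion. Cpeb4, which binds mRNA and regulates translation in terminal erythroid cells, was at 4.61 FPKM in maturation and 0.875 FPKM in expansion (5.26-fold). Fam132b, Ube2l6 and Cpeb4 were the switched-on genes among 29 expressed late erythroid genes, of which 10 were higher and 1 lower, and Fam132b was the 1 among 13 expressed EPO and STAT5 responsive genes, with 4 higher and 2 lower. None of the 12 expressed glucocorticoid induced genes met the rule, which few expressed rows of any kind met, and 2 were higher and 5 lower. In all, 10 of the 33 genes stood on any of the lists, and 23 on none.

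For the remaining genes no erythroid role is given here. 6030468B19Rik, a protein-coding gene without a functional name, stood next below Fam132b at 8.17 FPKM in maturation and 0.720 FPKM in expansion (11.3-fold). Gm16515, which RefSeq names Natd1, was at 3.82 FPKM in maturation and 0.704 FPKM in expansion, and 2310022B05Rik was at 2.92 and 0.874 FPKM. Gfap, an intermediate filament gene best known from astrocytes, was at 2.91 FPKM in maturation and 0.920 FPKM in expansion, the lowest ratio of the group. Tlcd1 was at 2.91 FPKM in maturation and 0.914 FPKM in expansion, Paqr4 at 2.78 and 0.813 FPKM, and Grtp1, a TBC-domain gene, at 2.75 and 0.492 FPKM. Tmem120b was at 2.59 FPKM in maturation and 0.507 FPKM in expansion. 2410076I21Rik, which RefSeq names Rec114, a gene of meiotic recombination, was at 2.74 FPKM in maturation and 0.701 FPKM in expansion.

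Relatives of the switched-on genes were looked up next. For 20 families, chosen after the values were seen, 48 relatives had a row and 35 were expressed. Of these 35, 1 was higher by that measure and 3 were lower, counts near the shares of all expressed rows (2.0% and 6.49%). Of the same relatives, 21 lay below -0.25, the median over every expressed row. Their own median was -0.36. Plek, the pleckstrin of blood cells, was at 2.57 FPKM in maturation and 15.6 FPKM in expansion. Tmem120a was at 0.866 FPKM in maturation and 2.89 FPKM in expansion. Paox, the other polyamine oxidase, was at 0.463 FPKM in maturation and 1.28 FPKM in expansion.

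The amino acid transporters Slc38a1 and Slc38a2 were at 3.38 and 6.78 FPKM in maturation and at 6.29 and 10.8 FPKM in expansion. Fam132a, a secreted relative of erythroferrone, was at 10.4 FPKM in maturation and 22.8 FPKM in expansion. Alas1, the housekeeping 5-aminolevulinate synthase, was at 1.25 FPKM in maturation and 1.54 FPKM in expansion. The disulfide isomerases Pdia4 and Pdia6 were at 2.35 and 4.63 FPKM in maturation and at 5.31 and 9.27 FPKM in expansion. In the other direction Fn3k, a neighbour and relative of Fn3krp, was at 1.09 FPKM in maturation and 0.0110 FPKM in expansion, below the maturation limit of the rule. Slc30a1, a zinc exporter, was at 1.27 FPKM in maturation and 0.233 FPKM in expansion, and Adam10 was at 14.7 and 7.02 FPKM.

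**Figure D3:**
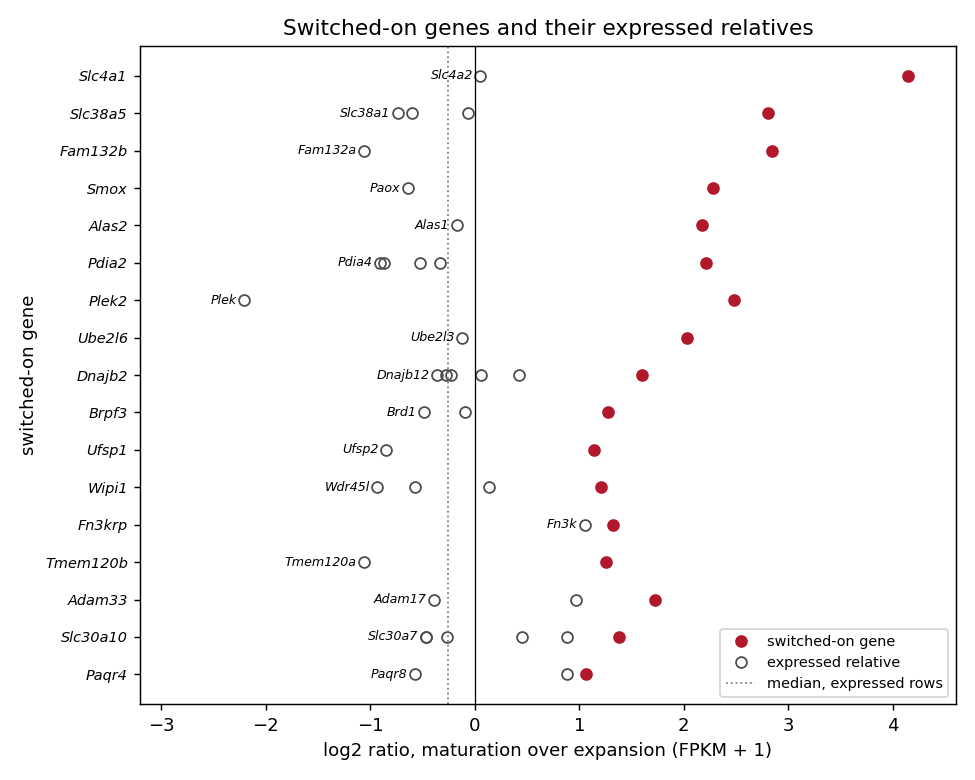
Log2 ratio of maturation over expansion, with 1 added to each FPKM, for 17 switched-on genes (filled) and their expressed relatives (open); the lowest relative of each family is named. The relatives lie between -2.21 for Plek and 1.05 for Fn3k, and the dotted line marks the median of all expressed rows at -0.25.

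The genes lay on 13 chromosomes. Chromosome 11 held 8 of the 33 (24.2%), beside 8.36% of all expressed rows, and chromosome 15 held 4 (12.1%), beside 3.94%. The 8 genes of chromosome 11 were spread over it, with Cpeb4 at 31772211 to 31831577 and Fn3krp at 121282687 to 121292082 on mm9. The 4 genes of chromosome 15 were all of the apolipoprotein L family, whose proteins bind lipids and are linked to membrane channels and cell death. Apol11a (mm9 77338701 to 77347749) was at 2.63 FPKM in maturation and 0.0122 FPKM in expansion. Apol10b (77414588 to 77426555) was at 2.25 FPKM in maturation and 0.391 FPKM in expansion. Apol11b (77464381 to 77473716) was at 3.30 FPKM in maturation and 0.552 FPKM in expansion. Apol8 (77579043 to 77585659) was at 2.56 FPKM in maturation and 0.0282 FPKM in expansion.

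Of the 12 Apol rows, 5 were expressed, the one outside the rule being Apol10a at 1.72 FPKM in maturation and 0.345 FPKM in expansion, and 7 were under 0.5 FPKM in both groups. The low rows were interspersed with the high ones, as Apol7c, between Apol11a and Apol10b, was at 0.250 FPKM in maturation and 0.00623 FPKM in expansion, and Apol9b, next to Apol8, was at 0.00295 and 0.00546 FPKM. Myh9, the non-muscle myosin gene beside Apol8, was at 6.59 FPKM in maturation and 9.78 FPKM in expansion. The copies are similar enough to share reads. Of the windows of 50 bases in the longest coding transcript, 18% for Apol11a, 16.5% for Apol11b and 6.11% for Apol10b also occur in transcripts of other Apol genes, and none for Apol8. How the reads were divided among the Apol rows is therefore uncertain, least so for Apol8.

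**Figure D4:**
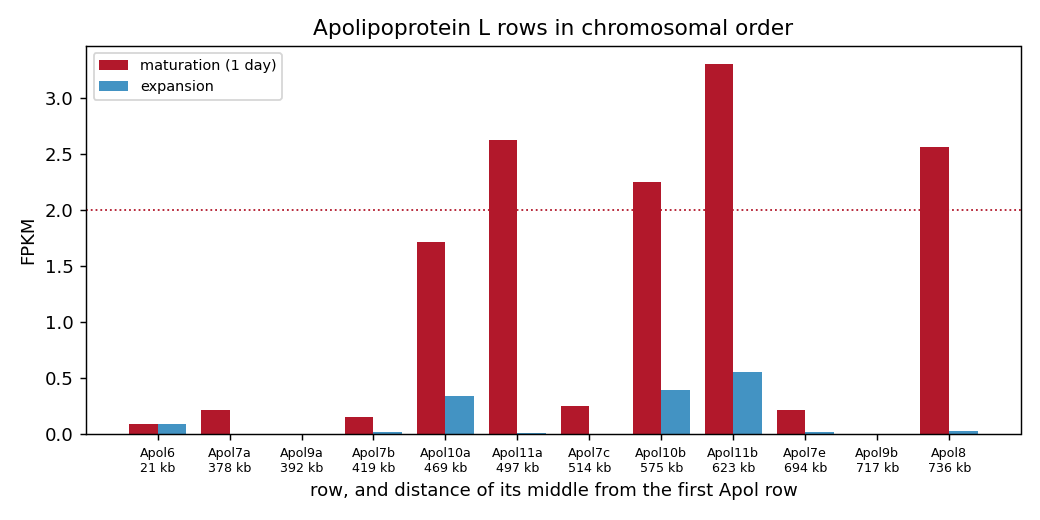
FPKM of the 12 Apol rows of chromosome 15 in chromosomal order, with maturation left of expansion; the distance in kb of each row's middle from the first Apol row stands under its name. The dotted line marks 2 FPKM, which Apol11a, Apol10b, Apol11b and Apol8 pass in maturation.

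Neighbouring genes were compared because reads of adjoining or overlapping genes can be shared. Within 50 kb of the switched-on genes lay 54 other expressed rows, 7 of them higher (13%) and 1 lower by the same measure. Over all expressed rows 2.0% were higher and 6.49% lower. The median log2 ratio of the neighbours was 0.23 within 20 kb, where 6 of 33 rows were higher (18.2%), 0.03 within 50 kb and -0.08 within 100 kb. Arhgdig, 95 bases from Pdia2, was at 8.27 FPKM in maturation and 2.92 FPKM in expansion, and Slc16a6, 190 bases from Wipi1, was at 10.9 and 4.38 FPKM. Tuba4a, a tubulin gene near Dnajb2, was at 63.5 FPKM in maturation and 23.3 FPKM in expansion. The other higher rows were Birc5 and Tk1 near 6030468B19Rik, Fn3k and Apol10a. Syngr2, also near 6030468B19Rik, was the 1 lower row, at 5.55 FPKM in maturation and 23.7 FPKM in expansion. Ache and Ufsp1 adjoin each other on chromosome 5 (137729505 to 137735691 and 137735897 to 137736892), and both met the rule. Srrt, 39 bases beyond Ufsp1 in the loci as listed, was at 9.39 FPKM in maturation and 12.1 FPKM in expansion.

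For 10 of the 33 genes, GENCODE M21 places exons of another gene on the opposite strand over their own. No source used here says whether the counting used strand, so reads that fall within these overlaps cannot be told apart. The overlapping gene was itself expressed for 6 of the 10. Tlcd1 is overlapped by Rpl23a, a ribosomal protein gene at 349 FPKM in maturation and 390 FPKM in expansion. Grtp1 is overlapped by Lamp1 at 27.2 and 37.7 FPKM, 2410076I21Rik by Nptn at 11.8 and 9.70 FPKM, Fam132b by Ilkap at 10.7 and 8.81 FPKM, Paqr4 by Pkmyt1 at 5.58 and 3.32 FPKM, and Alas2 by Apex2 at 1.86 and 1.08 FPKM, each with maturation named first. Of the windows of 50 bases in the longest coding transcript, the share also found in the partner's transcripts was 29.3% for 2410076I21Rik, 11.1% for Fam132b, 8.91% for Paqr4 and 4.32% for Grtp1. For Alas2 it was 13.8%, with Apex2 and a microRNA gene, and for Tlcd1 0.421%, with a microRNA gene and not with Rpl23a. The part of the partners' reads in the levels of these 6 genes was not tested. Beyond these 6 and the Apol genes, a share over 10% was found for Tmem120b (19.5%, with Rhof) and for Ube2l6 (11.3%, with Gm17167 and others). Rhof was at 0.214 FPKM in maturation and 0.119 FPKM in expansion. The part of shared reads in the levels of Tmem120b and Ube2l6 was not tested either. A listed locus is shared with another row by 5 of the 33, among them Paqr4 with Pkmyt1 and 2410076I21Rik with Nptn.

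The promoter windows of the 30 genes with a RefSeq sequence were searched for short motifs on both strands, and a match is only a description of the letters. A gene with several windows, such as Sox6 with 6, counted when any of them held the motif. A GATA hexamer occurred in 14 of 30 genes (46.7%), beside 21.4% of 6554 other expressed genes and 33% of all 27025 genes in the table of promoters. The looser arrangement of CTG, a spacer of 7 to 9 letters and GATA, some of whose matches contain one of the hexamers, occurred in 6 of 30 (20%), beside 5.8% and 8.25%. The CACCC-type pattern CCNCNCCCN, which also matches GC boxes, occurred in 23 of 30 (76.7%), beside 70.8% and 51.8%, so its share lay near that of other expressed genes. The stricter CCACACCCT occurred in 1 of 30, in a window of Sox6. Both a GATA hexamer and CCNCNCCCN were found in 8 genes, GATA alone in 6, CCNCNCCCN alone in 15 and neither in 1, Apol8.

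The remaining motifs were read in the same way. The E-box CAGNTG occurred in 18 of 30 genes (60%), beside 44.6% of other expressed genes and 54.6% of all genes. The STAT-type TTCNNNGAA occurred in 5 (16.7%), beside 8.06% and 9.55%, and those of Apol11a and Apol11b are the same letters. The CCAAT box occurred in 12 (40%), beside 44.7% and 41.1%, and TATAAA in 2 (6.67%), beside 8.01% and 15.7%. The palindromic glucocorticoid response element was in none of the 30 genes, beside 0.275% and 0.537%. At such low shares its absence from 30 genes need not set them apart.

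**Figure D5:**
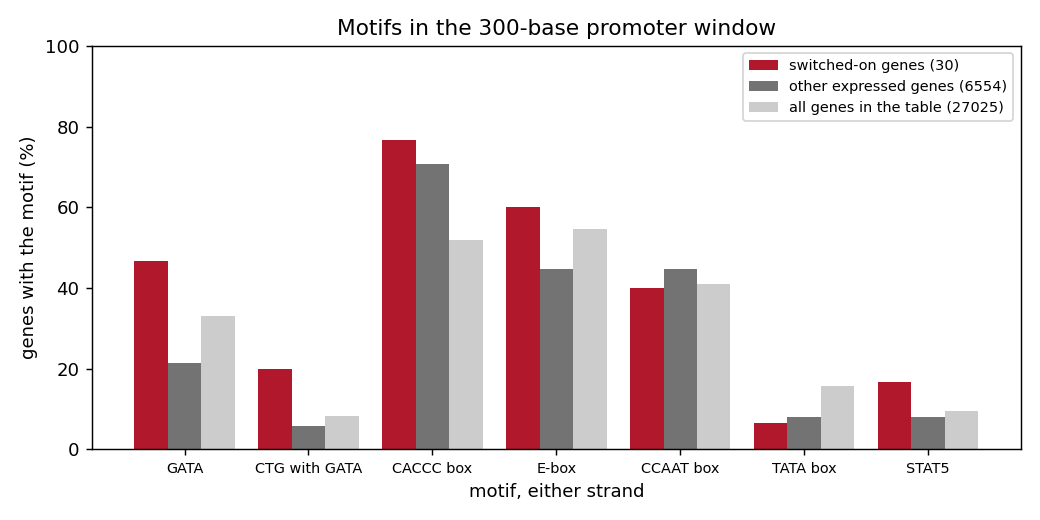
Percentage of genes whose promoter window of 300 bases holds each motif on either strand, for the 30 switched-on genes, the 6554 other expressed genes and all 27025 genes of the RefSeq table. GATA letters occur in 46.7%, 21.4% and 33% of these sets in that order, and CCNCNCCCN in 76.7%, 70.8% and 51.8%.

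The base composition of the windows differed along with the motifs. Over the 38 windows of the 30 genes, the median number of CpG was 13.5, against 21 over the 8278 windows of other expressed genes and 7 over all windows, while the median GC content was 60.8%, against 60.7% and 52.7%. Windows with 5 or fewer CpG made up 11 of 38 (28.9%), against 9.75% for other expressed genes. Here each window counted on its own. Several of the 11 were windows of Sox6, and those of Apol11a and Apol11b are near-copies. The 11 are therefore not independent examples, nor are those among them with GATA hexamers. GATA hexamers occurred in 7 of these 11 (63.6%) and in 8 of the 27 windows richer in CpG (29.6%), against 40.4% and 16.1% in the windows of other expressed genes in the same order. The part of base composition in the share of GATA letters was not tested beyond this split.

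Among the sequences shown, the Alas2 window holds a GATA hexamer on the opposite strand at position -86 from the start site, and CACCC-type letters between -43 and the start. Smox has a GATA hexamer at -96 and Slc38a5 has one at position 15 past the start, each beside CACCC-type matches. Pdia2, whose window is not shown, has 3 GATA hexamers and 3 CpG. The window of the marker Fam132b, also not shown, has no GATA hexamer and 1 CCNCNCCCN match, at -208. The windows of Apol11a and Apol11b differ at 2 of 300 positions, A251G and C252T, counted from 1 at the 5′ end of the window, with Apol11a first and Apol11b second. Both hold GATA hexamers at -181 and -83 and no CpG, so these 2 genes are not independent examples of the motif. Apol8, which differs from Apol11a at 218 of 300 positions when the windows are set side by side without gaps, holds no GATA hexamer. The part of these letters in the levels of the Apol genes was not tested.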

How the data were processed

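RNA of 2 groups of mouse erythroblasts was sequenced. The authors deposited FPKM, 1 column per group. Per the submitters' processing notes, the build was mm9 and Cuffdiff 2.0.2 was used. The sources used here name no aligner, annotation, strandedness, read length or pooling of duplicates. No counts were used, so the depth is unknown, and with 1 value per group no test was run.

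Each column was treated as the authors' value for its group. Rows were selected by the thresholds in the report, the log2 ratio used a pseudocount of 1, and expressed rows had at least 1 FPKM in a group. The genes and lists were chosen with earlier results of these data known. Genes named are the 4 markers, the 25 genes highest in maturation, the 10 largest ratios, list members, rows beside the thresholds, members sharing a locus and up to 4 genes per list with the largest log2 ratio; Rhag, Ank1, Slc14a1, Mcpt1, Mcpt2, Mcpt4, Tubb1, Apol rows, relatives, neighbours and overlapping genes were added after their values were seen.

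All 33 symbols matched RefSeq on GRCm38.p6 by symbol or synonym, and 30 had a promoter window. Sharing of 36, 50 and 75 base windows used GENCODE M21 transcripts. Loci are on mm9, counted from 1, since 175 of 175 short microRNA rows spanned exactly their RefSeq hairpin length when starts were counted from 0. The code of the selection and of the motif search was checked on simulated data made to pass or fail. That check says nothing about how often noise would meet the rule. Python 3.11.15, pandas and matplotlib were used. Protein lengths were not analysed here. Alternatives covered the thresholds, the pseudocount, rescaling, shared loci and motif settings.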

Additional observations from a re-analysis of the deposited data

How the results depend on the processing

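The number of switched-on genes was 33, and it was 11 with an expansion limit of 0.5 FPKM and 10 with a maturation minimum of 5 FPKM, as stricter limits must give fewer. The other limits, both rescalings and leaving out shared loci or near-copies, the last chosen after seeing the data, gave counts within 1.5 times of 33. The median log2 ratio of the genes was 1.50, and 2.38 with a pseudocount of 0.1 and 0.58 with a pseudocount of 5. The count of expressed rows at least 3-fold higher was 115, and 1087 with no filter on low values and 181 with all ratios shifted to a median of 1. With that shift, counts of higher and lower genes became 16 and 0 for the membrane list (11 and 2 without it), 9 and 3 for transcription factors (6 and 7) and 1 and 1 for interferon genes (1 and 3). The CACCC share was 76.7% with CCNCNCCCN and 3.33% with CCACACCCT. With all ratios so shifted the list medians turned positive, at 0.0092 for erythroid and hematopoietic transcription factors (-0.25 without it) and 0.077 for autophagy and mitophagy (-0.18 without it). The median of neighbouring rows was 0.03 within 50 kb, 0.23 within 20 kb and -0.075 within 100 kb, the 20 and 100 kb distances being chosen after seeing the data. Both rescalings multiplied the maturation values, by 1.26 and 1.01, so no ratio of the 33 genes could fall under 3-fold. No paired analysis was possible because each group has 1 deposited value and no replicate numbers. Depth is unknown, and values under 0.1 FPKM in expansion make the largest ratios the least certain.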
